A study of Homo sapiens with 12 samples.

Results

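The genes described here are the clustered histone genes whose transcripts were counted in polyA RNA. They were chosen by 2 criteria, the symbol and the measured counts. The symbol names an H1, H2A, H2B, H3 or H4 gene of the clusters HIST1 to HIST4, without numbered pseudogenes, and the counts sum to at least 100 over all 12 libraries. Of 30017 symbols in the table, 51 met this rule, and 21 more histone symbols stayed below 100 counts. The members divide into 5 H1, 13 H2A, 15 H2B, 9 H3 and 9 H4 genes. By the GENCODE 29 annotation of GRCh38, 38 lie in the HIST1 cluster on chromosome 6, 10 in HIST2 and 2 in HIST3 on chromosome 1, and 1, HIST4H4, on chromosome 12. In the same annotation the H2B member HIST2H2BC is a transcribed pseudogene, which the rule did not remove. The cells were titled THP1, an established human monocytic leukaemia line, and formed 4 groups of 3 libraries. These were IRAK4 knockout (KO) cells under 50 nM CC-885, wild-type (WT) cells under 50 nM CC-885, KO cells under DMSO and WT cells under DMSO, all for 12 h. Both genotypes had received Cas9 and were grown out from single cells, KO cells with a guide RNA against IRAK4 and WT cells without. CC-885 is a small molecule that recruits the translation termination factor GSPT1 to the cereblon ubiquitin ligase for degradation. Neither the number of clones per genotype nor the origin of the replicates is stated, so the edit and the clone cannot be told apart, and p-values measure only the spread between these libraries.

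Nucleosomes wrap DNA around an octamer of the core histones H2A, H2B, H3 and H4, and the linker histone H1 binds where DNA enters and leaves. Most clustered histone genes are transcribed in S phase and give mRNAs that end in a conserved stem-loop, which SLBP binds, in place of a polyA tail, and that are degraded when DNA synthesis stops. PolyA selection therefore recovers such mRNAs poorly. Some of these genes also give longer, polyadenylated transcripts, which have been described in differentiated and in non-dividing cells.

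The stem-loop is shown first because it marks the normal end of these mRNAs. It was searched in the annotated GENCODE 29 transcripts and was present in 25 of the 51 members. Of 19598 protein-coding genes without a HIST symbol, 3 held it, or 0.0153%. Many annotated histone transcripts end at or near the stop codon, so a missing match says only that the annotated transcript does not hold it. The capitals mark the loop, and the forms were found in 15, 3, 3, 2 and 2 members in the order given.
form of HIST2H2BE, HIST1H2AC, HIST3H2A and HIST1H2BH: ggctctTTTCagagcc
form of HIST1H2BD and HIST1H2BC: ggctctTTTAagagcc
form of HIST1H4H and HIST4H4: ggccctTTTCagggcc
form of HIST2H4A and HIST2H4B: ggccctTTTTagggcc
form of HIST1H2AG and HIST2H2BC: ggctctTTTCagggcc

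In 19 members an annotated transcript ran at least 100 bases beyond the stem-loop, and in 13 of these it carried AATAAA or ATTAAA, the signals for cleavage and polyadenylation, in its last 40 bases. The last 30 bases of 4 such transcripts are given for well-counted members, 3 of which were far higher under CC-885 and 1 of which, HIST1H2BH, was not. The capitals mark the signal.
HIST2H2BE: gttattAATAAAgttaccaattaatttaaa
HIST1H2AC: tAATAAAaggtaatgcaaagggagaggaaa
HIST3H2A: tctgatATTAAAagtatttatgatctctaa
HIST1H2BH: aattttttAATAAAaggtttttttaatgtc

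The 140 bases upstream of the RefSeq start (GRCh38.p14) are given for the 3 members with the most counts and for HIST1H2BH. Capitals mark the octamer ATTTGCAT and CCAAT, each on either strand, and TATAAA on the gene's strand. The windows are on the minus strand for the first 3 genes and on the plus strand for HIST1H2BH, at chr1:149886683-149886822, chr6:26056471-26056610, chr6:27146859-27146998 and chr6:26251474-26251613.
HIST2H2BE: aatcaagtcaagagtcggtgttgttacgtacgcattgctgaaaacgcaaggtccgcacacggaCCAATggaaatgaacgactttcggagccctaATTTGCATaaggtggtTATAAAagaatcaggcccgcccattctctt
HIST1H1C: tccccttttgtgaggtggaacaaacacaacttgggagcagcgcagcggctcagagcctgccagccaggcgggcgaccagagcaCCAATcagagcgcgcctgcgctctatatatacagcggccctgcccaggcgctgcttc
HIST1H2BK: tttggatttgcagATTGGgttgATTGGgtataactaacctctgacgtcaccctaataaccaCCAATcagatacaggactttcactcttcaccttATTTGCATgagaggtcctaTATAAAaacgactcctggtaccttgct
HIST1H2BH: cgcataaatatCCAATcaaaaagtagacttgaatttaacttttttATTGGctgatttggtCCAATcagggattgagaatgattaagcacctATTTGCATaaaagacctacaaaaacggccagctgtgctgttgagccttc
RefSeq promoters, of 250 bases before to 50 after the start, matched 42 of the 51 members. The octamer was in 18 of them, of which 10 were H2B genes (of 14) and 7 were H2A genes (of 10), and in 1.66% of all 27305 promoters. CCAAT was in 35 members and 33.0% of all promoters, and TATAAA in 22 members and 7.17% of all promoters. HIST1H2BH holds the octamer and CCAAT as HIST2H2BE and HIST1H2BK do, but not TATAAA, which those 2 hold. HIST1H1C holds CCAAT alone. Whether these letters bear on the change under CC-885 was not tested.

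Totals ranged from 46903984 to 56675539 counts per library. IRAK4 measured 30.7 ± 1.05 CPM (counts per 1e6 mapped counts with TMM factors, mean ± SD, n = 3 libraries here and below) in KO cells and 72.8 ± 9.53 CPM in WT cells under CC-885, and 8.26 ± 0.847 CPM in KO cells and 52.2 ± 1.57 CPM in WT cells under DMSO, lower in KO cells under both treatments. All 12 listed markers of the monocytic line were detected in every group, but 11 were lower and 1 higher under CC-885 in KO cells, and 10 lower and 1 higher in WT cells. Their summed level was 2215 CPM in KO and 2253 CPM in WT cells under CC-885, and 7202 CPM in KO and 4150 CPM in WT cells under DMSO. Of the listed markers of other cell types, CD3E, CD3G, MS4A1, COL1A2 and CDH5 had 0 counts in every library. Others were present. PECAM1 was at 95.96 CPM in KO and 111.5 CPM in WT cells under CC-885, and at 416.9 CPM in KO and 278.4 CPM in WT cells under DMSO. NKG7 lay between 4.317 and 18.22 CPM over the 4 groups. PAX5 was at 1.141 CPM in KO and 5.97 CPM in WT cells under CC-885, and at 0.4577 CPM in KO and 6.14 CPM in WT cells under DMSO. The part of these marker differences in the histone results was not tested. WT CC-885 replicate 3 stood apart from the other 2 libraries of its group, with chi-square values over genes of 81.2 and 66.4 times their degrees of freedom, and the values without it are given where they change a call of a named gene.

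The histone genes together were far higher under CC-885 in both genotypes, and highest in KO cells under CC-885. Their summed level was 547.5, 537 and 566.3 CPM in KO cells and 282.3, 265.5 and 233.3 CPM in WT cells under CC-885. It was 38.28, 37.25 and 38.07 CPM in KO cells and 31.67, 22.77 and 22.78 CPM in WT cells under DMSO. No library of a CC-885 group reached down to a DMSO group, and the KO and WT libraries did not overlap under either treatment. The mean under CC-885 was 14.53 times that under DMSO in KO cells and 10.12 times in WT cells, and KO cells stood at 2.113 times WT cells under CC-885 and 1.471 times under DMSO. Without WT CC-885 replicate 3 the WT mean under CC-885 was 273.9 CPM and the KO mean 2.009 times that. These sums describe genes chosen for their counts in the same libraries and carry no test. Within the 51 name prefix of the libraries, the ratio of CC-885 to DMSO was 14.6 in KO cells, from 3 and 2 libraries. In WT cells it was 8.65 within the 51 prefix, from 2 libraries and 1. Within the 52 prefix it was 10.2 in WT cells, from 1 library, WT CC-885 replicate 3, and 2. In bulk RNA, fewer cells of a type and less RNA per cell cannot be told apart, and CPM values are shares of the library.

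**Figure D1:**
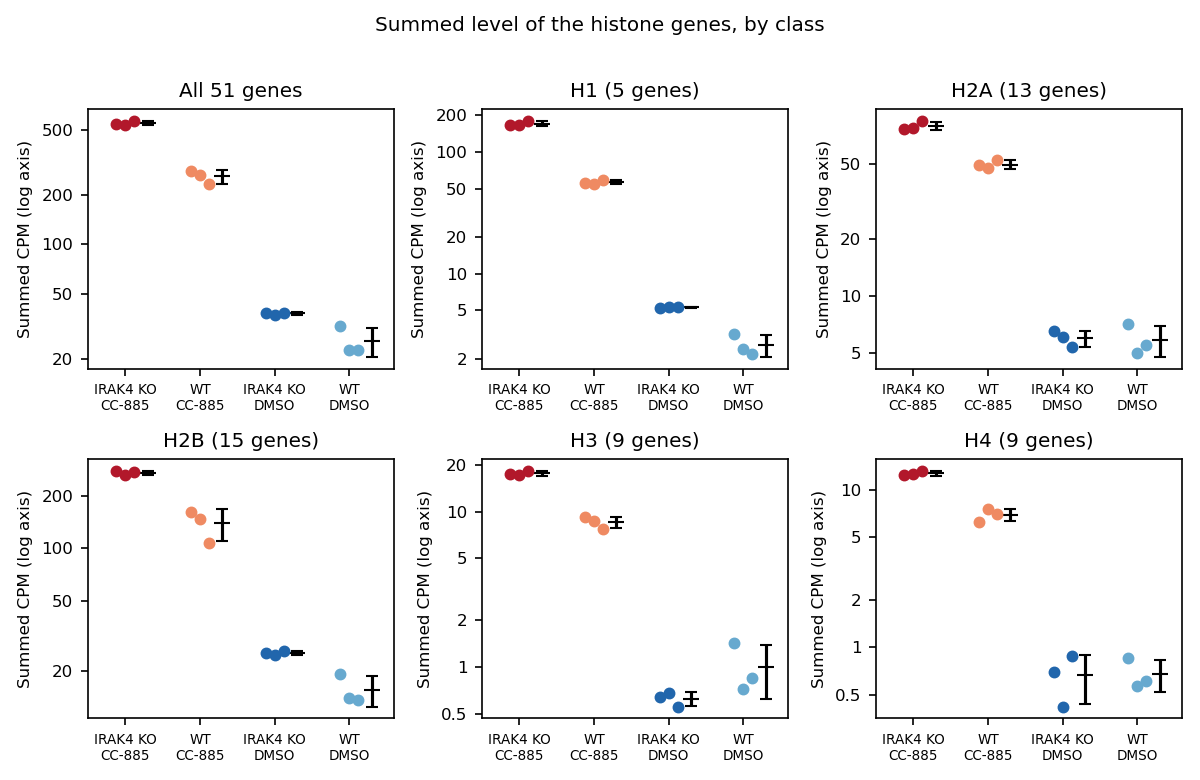
Summed CPM of all 51 histone genes and of each class on log axes, with 1 point per library and the mean ± SD (n = 3 libraries) beside it, in KO and WT cells under CC-885 and under DMSO. In every panel the CC-885 libraries lie above all DMSO libraries, and the KO CC-885 libraries (537 to 566.3 CPM in all) lie above the WT CC-885 libraries (233.3 to 282.3 CPM).

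Each class showed the same order under CC-885. H1 genes summed to 171 ± 7.20 CPM in KO and 56.4 ± 2.34 CPM in WT cells under CC-885, and to 5.30 ± 0.0597 CPM in KO and 2.59 ± 0.524 CPM in WT cells under DMSO. H2B genes summed to 269 ± 6.96 CPM in KO and 138.8 ± 28.4 CPM in WT cells under CC-885, and to 25.3 ± 0.553 CPM in KO and 15.6 ± 3.04 CPM in WT cells under DMSO. Of the WT CC-885 libraries, replicate 3 was lowest for H2B, at 107.1 CPM against 161.8 and 147.4 CPM, and without it the WT mean was 154.6 CPM. H2A genes were at 79.8 ± 3.97 CPM in KO and 49.7 ± 2.54 CPM in WT cells under CC-885, and at 6.003 ± 0.573 CPM in KO and 5.89 ± 1.09 CPM in WT cells under DMSO. H3 genes reached 17.7 ± 0.560 CPM in KO and 8.56 ± 0.747 CPM in WT cells under CC-885, against 0.626 ± 0.0641 CPM in KO and 1.00 ± 0.378 CPM in WT cells under DMSO. H4 genes reached 12.8 ± 0.412 CPM in KO and 6.94 ± 0.620 CPM in WT cells under CC-885, against 0.664 ± 0.229 CPM in KO and 0.677 ± 0.156 CPM in WT cells under DMSO.

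A few genes carried much of the signal. HIST2H2BE, HIST1H1C and HIST1H2BK made up 54.0% of the summed CPM in KO and 50.4% in WT cells under CC-885, and 59.9% in KO and 40.7% in WT cells under DMSO. Without these 3, the other 48 genes summed to 253 ± 6.99 CPM in KO and 129 ± 5.82 CPM in WT cells under CC-885, and to 15.2 ± 0.590 CPM in KO and 15.3 ± 2.88 CPM in WT cells under DMSO. By these means, the higher sum of KO cells under DMSO was carried by these 3 genes, while that under CC-885 was also present in the other 48. Under DMSO the libraries of the other 48 read 15.41, 14.53 and 15.65 CPM in KO and 18.51, 13.03 and 14.23 CPM in WT cells. All KO values lay above WT replicates 2 and 3, so the equal means rest on WT replicate 1, the only 51-prefix library of its group. Per kilobase of annotated exon, HIST1H1C was highest under CC-885, at 213 CPM per kb in KO and 66.4 CPM per kb in WT cells. HIST1H2BK was highest under DMSO, at 36.1 CPM per kb in KO and 19.0 CPM per kb in WT cells. The annotated lengths were 642 bases for HIST1H1C and 381 for HIST1H2BK, against 2194 for HIST2H2BE. A short annotated length raises such a value, so this order depends on the annotation.

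**Figure D2:**
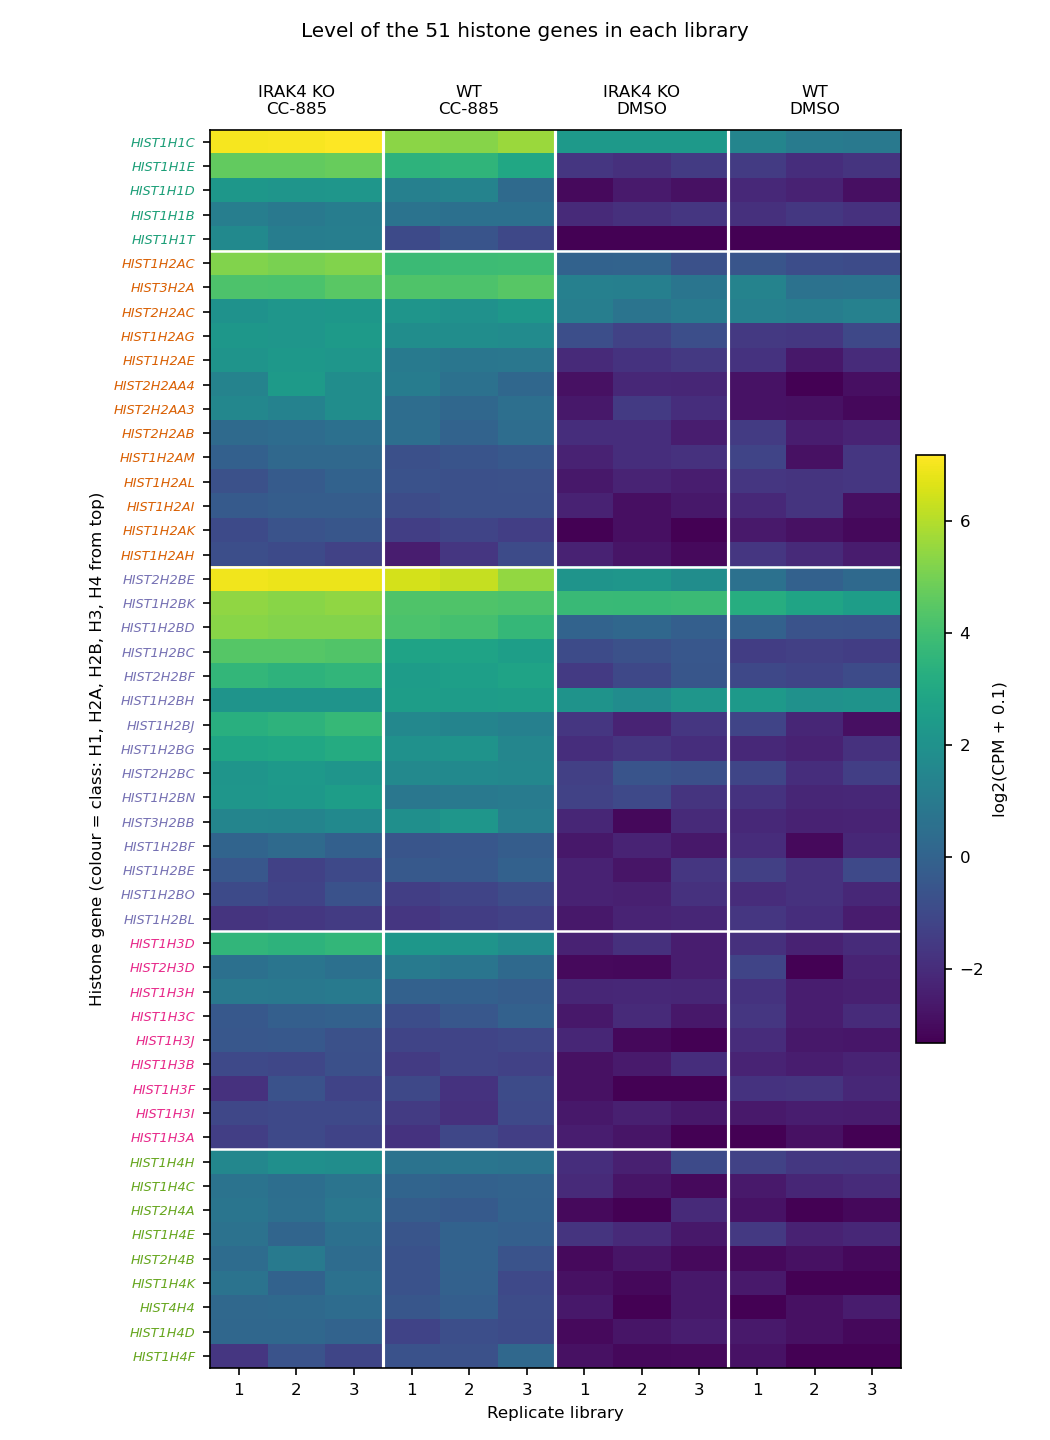
Level of each of the 51 histone genes as log2(CPM + 0.1) in the 12 libraries, by class and then by mean level, with KO CC-885, WT CC-885, KO DMSO and WT DMSO libraries from left to right. Nearly all genes are brighter in the CC-885 libraries, and HIST1H2BH lies between 3.356 and 5.704 CPM in all 12.

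Because the rule sums over all libraries, it favours genes that are high under CC-885. Only 12 members would have reached 100 counts in the DMSO libraries alone, and 48 would have done so in the CC-885 libraries alone. Without the KO CC-885 libraries 11 members would have fallen below 100 counts, and without the WT CC-885 libraries 8. The rule therefore also bears on the comparison of genotypes under CC-885. All 51 passed the filter on low counts, 34 of them only through the CC-885 libraries. The member just inside the threshold was HIST1H3A with 103 counts, and the gene just outside was HIST1H2BM with 93. The 21 genes below the threshold summed to 277 counts in KO and 265 in WT cells under CC-885, and to 61 in KO and 91 in WT cells under DMSO. The counts of members below are therefore descriptions, and the fold changes of single well-counted genes are the stronger measurement.

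CC-885 was compared with DMSO in each genotype to ask how its transcripts change. In KO cells 50 of the 51 genes were called higher and 0 lower (edgeR quasi-likelihood test, adjusted p under 0.05), where 38.9% of all 16010 genes tested were called higher, 40% lower and 78.9% either way. In WT cells 48 were called higher and 0 lower, against 35.7% higher, 36.6% lower and 72.3% either way among all genes. At an unadjusted p under 0.05, and with DESeq2, the number called lower was also 0 in both genotypes. The median log2 fold change of the members was 3.98 in KO and 3.44 in WT cells, and that of all genes was -0.03 in both. A rise of at least 8-fold was called for 40 members in KO cells, against 2.87% of all genes, and for 28 members in WT cells, against 2.3%. Of the 12 members with at least 100 counts under DMSO, 11 were called higher in KO cells, with a median of 4.15, and 12 in WT cells, with a median of 3.76. CC-885 and DMSO libraries did not overlap for 50 members (98%) in KO cells and 48 (94.1%) in WT cells, where 81.9% of all genes tested did not overlap in KO and 73.8% in WT cells.

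All 5 linker histone genes were called higher under CC-885 in both genotypes, but HIST1H1C and HIST1H1E alone would have passed the filter on low counts in the DMSO libraries. HIST1H1C, which encodes the linker histone H1.2, had 131, 134.6 and 144.2 CPM in KO and 40.69, 38.57 and 48.67 CPM in WT cells under CC-885. Under DMSO it had 4.862, 4.877 and 4.845 CPM in KO and 2.629, 1.933 and 1.768 CPM in WT cells. Its 4 groups did not overlap. It rose under CC-885 by 4.81 ± 0.12 on the log2 scale (± SE here and below, adjusted p = 5.69e-15) in KO cells and by 4.35 ± 0.12 (5.8e-14) in WT cells. HIST1H1E, which encodes H1.4, had 25.13, 25.11 and 26.38 CPM in KO and 10.91, 11.45 and 7.423 CPM in WT cells under CC-885. Under DMSO its libraries lay between 0.1611 and 0.2581 CPM in both genotypes, without separation. It rose by 6.87 ± 0.20 (4.51e-14) in KO and 5.59 ± 0.21 (1.64e-12) in WT cells. HIST1H1D, which encodes H1.3, rose by 6.58 ± 0.39 in KO and 4.49 ± 0.38 in WT cells, and had 20 counts over the 6 DMSO libraries. HIST1H1T, the testis linker histone gene, had 375 counts in KO and 69 counts in WT cells under CC-885 and 0 counts in all 6 DMSO libraries. With the 0 replaced by a floor of 3 counts per group, it was at least 130-fold higher in KO and at least 22.9-fold higher in WT cells, which covers counting error only.

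H2B genes included both the member with the most counts and the member that changed least. HIST2H2BE, at the HIST2 cluster (chr1:149884459-149886652, minus strand), had 123.1, 115 and 118.1 CPM in KO and 89.38, 75.23 and 43.75 CPM in WT cells under CC-885. Under DMSO it had 4.262, 4.527 and 3.415 CPM in KO and 1.411, 0.8657 and 1.1 CPM in WT cells. The groups did not overlap, and the lowest WT CC-885 value is that of replicate 3. It rose by 4.86 ± 0.26 (2.01e-08) in KO and 5.95 ± 0.30 (1.71e-08) in WT cells. HIST1H2BD rose by 5.38 ± 0.17 in KO and 4.64 ± 0.18 in WT cells, HIST1H2BC by 5.32 ± 0.13 in KO and 4.50 ± 0.15 in WT cells, and HIST1H2BJ by 5.96 ± 0.31 in KO and 3.998 ± 0.35 in WT cells. HIST2H2BF rose by 4.85 ± 0.19 in KO and 3.95 ± 0.20 in WT cells, but its exons overlap FCGR1A on the other strand and whether counting used strand is not stated. FCGR1A itself was at 32.08 CPM in KO and 65.26 CPM in WT cells under CC-885, and at 80.18 CPM in KO and 78.84 CPM in WT cells under DMSO.

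Of the 10 members with the most counts, HIST1H2BK and HIST1H2BH had the smallest fold changes. HIST1H2BK had 43.04, 39.47 and 42.83 CPM in KO and 19.48, 19.27 and 18.37 CPM in WT cells under CC-885, and 13.75, 13.32 and 14.16 CPM in KO and 9.126, 6.946 and 5.682 CPM in WT cells under DMSO. The groups did not overlap, and it rose by 1.61 ± 0.12 (2.41e-09) in KO and 1.397 ± 0.12 (3.32e-08) in WT cells. HIST1H2BH had 4.269, 4.258 and 4.222 CPM in KO and 5.608, 5.541 and 5.704 CPM in WT cells under CC-885. Under DMSO it had 4.122, 3.356 and 4.508 CPM in KO and 5.065, 3.886 and 4.149 CPM in WT cells. The CC-885 libraries fell inside the range of the DMSO libraries in KO cells and just above it in WT cells. Its change was 0.09 ± 0.13 (0.524) in KO cells, the only member not called there, and 0.37 ± 0.13 (0.0166) in WT cells. The WT call of HIST1H2BH was lost without WT DMSO replicate 2 (0.29, adjusted p = 0.084) and without replicate 3 (0.33, 0.0633), and in the libraries of the 51 name prefix alone (0.13, 0.498).

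**Figure D3:**
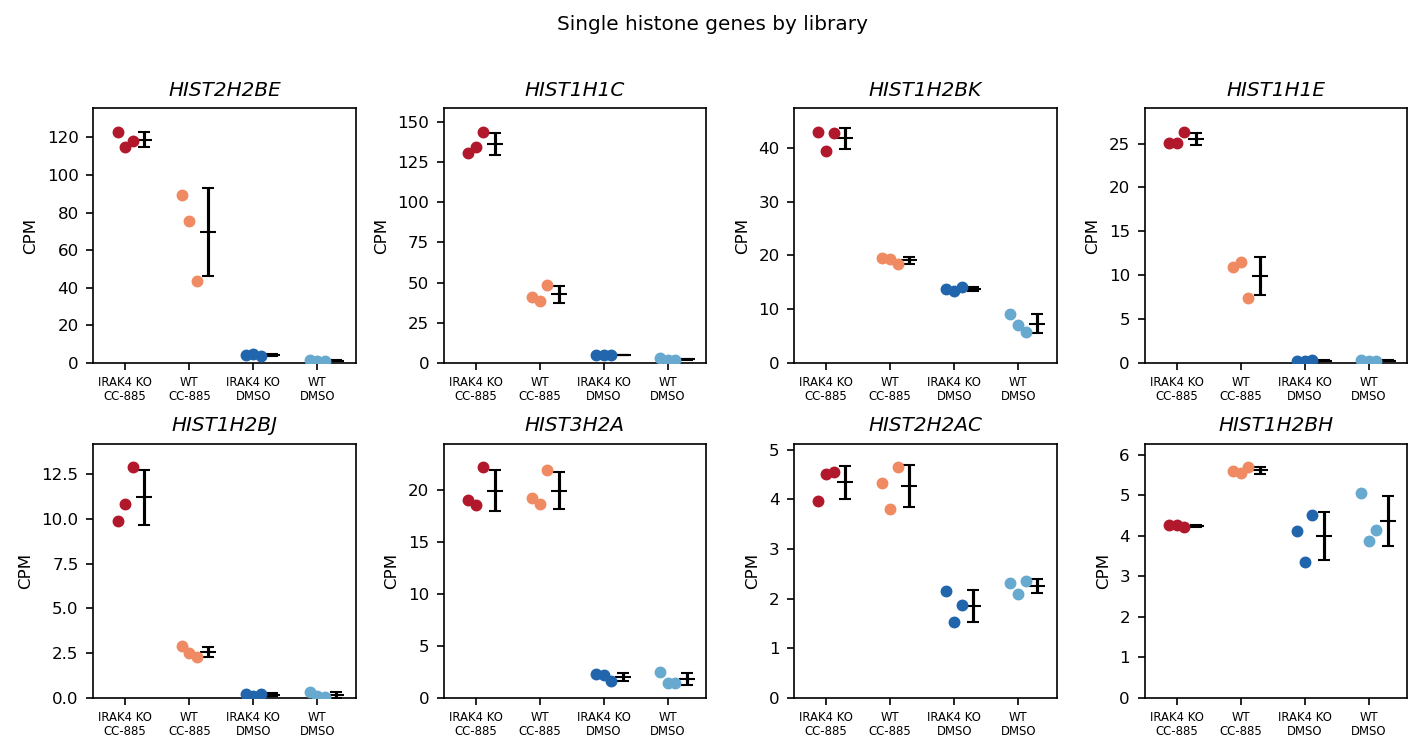
CPM of 8 histone genes in each library on linear axes from 0, with 1 point per library and the mean ± SD (n = 3 libraries) beside it. HIST2H2BE and HIST1H1C reach 115 CPM or more in all KO CC-885 libraries, HIST3H2A and HIST2H2AC reach the same level in KO and WT cells under CC-885, and HIST1H2BH changes little.

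H2A genes rose as well. HIST1H2AC, which also gives a long polyadenylated transcript in the annotation, rose by 5.49 ± 0.14 (1.09e-14) in KO and 4.89 ± 0.15 (1.81e-13) in WT cells. It had 33.32 to 36.02 CPM in KO and 14.13 to 15.01 CPM in WT cells under CC-885, and no library exceeded 0.9265 CPM under DMSO. HIST3H2A rose by 3.29 ± 0.17 in KO and 3.47 ± 0.18 in WT cells, to 19.9 ± 1.99 CPM in KO and 19.9 ± 1.75 CPM in WT cells. HIST2H2AA3 and HIST2H2AA4 are near-identical copies among which the authors' counting could split reads, so their separate values are uncertain. HIST2H2AA4 read 5.24 ± 0.43 in KO and 5.70 ± 0.59 in WT cells, and HIST2H2AA3 read 4.18 ± 0.30 in KO and 5.09 ± 0.43 in WT cells.

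H3 and H4 genes had few counts under DMSO. HIST1H3D, whose exon overlaps AL031777.3 on the same strand, rose by 6.56 ± 0.22 (1.76e-13) in KO and 4.84 ± 0.23 (2.27e-11) in WT cells. It had 10.79 to 12.1 CPM in KO and 3.257 to 4.58 CPM in WT cells under CC-885, and no DMSO library exceeded 0.1748 CPM. HIST4H4 had 170 counts in KO and 93 in WT cells under CC-885 against 6 in each genotype under DMSO, and rose by 4.79 ± 0.51 in KO and 3.87 ± 0.55 in WT cells. With so few counts the WT value ranged from 2.94 to 8.14 over the alternatives run. HIST2H4A and HIST2H4B are also near-identical copies. The 3 members not called in WT cells, HIST1H3F, HIST1H2AH and HIST1H2BL, were named after their values were seen. They measured 0.95 ± 0.49, 0.76 ± 0.56 and 0.84 ± 0.40 there.

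KO and WT cells were compared under CC-885 to ask whether the genotypes differ in the treated state. These libraries are also used in the comparisons above. Of the 51 genes, 30 were called higher in KO cells and 1 lower, against 27.8% higher, 30.8% lower and 58.6% either way among all genes. The members' share called higher was 58.8%. A difference of at least 2-fold was called for 20 members, or 39.2%, against 5.83% of all genes. The median was 0.76, and that of all genes was -0.02. By class, 5 of 5 H1, 6 of 13 H2A, 9 of 15 H2B, 2 of 9 H3 and 8 of 9 H4 genes were called higher. KO and WT libraries did not overlap for 37 members, or 72.5%, against 63.1% of all genes tested.

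The largest differences under CC-885 were in HIST1H1T (2.43 ± 0.26, adjusted p = 8e-06) and in HIST1H2BJ (2.12 ± 0.22, 1.07e-06). HIST1H1T had 375 counts in KO and 69 in WT cells, so it met the rule only through the KO CC-885 libraries. Its difference and p-value are thus not independent of its choice as a member. HIST1H2BJ had 9.882, 10.83 and 12.92 CPM in KO and 2.891, 2.527 and 2.306 CPM in WT cells, without overlap. HIST1H1C (1.68 ± 0.10, 1.15e-09), HIST1H2BC (1.68 ± 0.10, 1.46e-09), HIST1H3D (1.52 ± 0.14, 1.66e-07) and HIST1H2BN (1.43 ± 0.17, 2.43e-06) followed. Exons of HIST1H2BN overlap other histone genes on both strands. HIST2H2BE was higher in KO cells by 0.77 ± 0.21 (0.0103), or by 0.53 without WT CC-885 replicate 3. HIST1H2BH was the member called lower (-0.40 ± 0.13, 0.0125).

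For HIST3H2A, HIST2H2AC and HIST3H2BB no difference between genotypes under CC-885 was called. HIST3H2A had 19.01, 18.52 and 22.18 CPM in KO and 19.15, 18.66 and 21.91 CPM in WT cells (adjusted p = 0.998). HIST2H2AC differed by 0.03 ± 0.13 (0.883), with 4.34 ± 0.330 CPM in KO and 4.26 ± 0.425 CPM in WT cells. HIST3H2BB, next to HIST3H2A in its cluster, read -0.31 ± 0.24 (0.27), and was called lower without WT CC-885 replicate 3 (-0.56, 0.0162). HIST4H4 was called higher (0.88 ± 0.32, 0.0275), a call lost without any 1 of 5 of the CC-885 libraries (0.71 to 0.92, adjusted p from 0.0559 to 0.0758). The exception was WT CC-885 replicate 2. No KO CC-885 library carries the 52 name prefix, and of the WT CC-885 libraries only replicate 3 does. In the 51-prefix libraries alone the summed CPM of KO cells was 2.01 times that of WT cells, from 3 and 2 libraries. These are the same libraries as in the ratio without WT CC-885 replicate 3 above. Under CC-885 that library and the prefix therefore cannot be told apart.

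Under DMSO the genotypes were compared to ask what differed before treatment. Of the 51 genes, 8 were called higher in KO cells and 3 lower, against 21.3% higher, 28.4% lower and 49.7% either way among all genes. The members' shares were 15.7% and 5.88%, with a median of -0.04 beside -0.06 for all genes. Most members had few counts under DMSO, where a call is hard to reach. Of the 12 with at least 100 counts there, 6 were called higher and 0 lower, with a median of 0.62. KO and WT libraries did not overlap for 8 of the 51 members, or 15.7%, against 59.8% of all genes tested. The well-counted members higher in KO cells were HIST2H2BE by 1.86 ± 0.33 (adjusted p = 0.000955), HIST1H1C by 1.21 ± 0.13 (1.64e-06) and HIST1H2BK by 0.93 ± 0.12 (1.3e-05). KO and WT libraries overlapped for none of these 3, and all 3 calls held under every alternative run. HIST1H2BC (0.86 ± 0.21, 0.00383), HIST1H2AC (0.67 ± 0.21, 0.0129), HIST1H2BN (1.083 ± 0.34, 0.0144), HIST2H2BC (0.75 ± 0.30, 0.046) and HIST2H2AA3 (2.18 ± 0.62, 0.00865) were also called higher. Some of these had few counts under DMSO. HIST2H2AA3 had 25 in KO and 5 in WT cells, and HIST1H2BN had 49 in KO and 22 in WT cells. HIST2H2AA3 would not have passed the filter on low counts in the DMSO libraries alone. The call of HIST1H2AC was lost without KO DMSO replicate 1, KO DMSO replicate 2 or WT DMSO replicate 3 (0.52 to 0.58, adjusted p from 0.0518 to 0.077), and in the 51-prefix (0.64, 0.0769) and 52-prefix libraries alone (0.29, 0.518). The call of HIST1H2BC was lost in the 51-prefix libraries alone (0.73, 0.16). The call of HIST1H2BN was lost without KO DMSO replicate 2, WT DMSO replicate 2 or WT DMSO replicate 3 (0.83 to 0.98, 0.0541 to 0.0886), and in the 51-prefix (0.90, 0.149) and 52-prefix libraries alone (0.76, 0.367). The call of HIST2H2AA3 was lost without KO DMSO replicate 2 (1.66, 0.0607) and in the 51-prefix libraries alone (1.82, 0.167). HIST1H2BD read 0.54 ± 0.23 (0.0637) and stayed uncalled in 16 of 23 alternatives. It was called without WT DMSO replicate 1, WT CC-885 replicate 1 or WT CC-885 replicate 3, the last at 0.55 (0.018). With all libraries it was called with DESeq2 (0.57, 0.0359), upper-quartile factors (0.67, 0.0338), no filter (0.60, 0.042) and the title numbers as a block (0.54, 0.0328).

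The 3 members called lower in KO cells under DMSO, named after their values were seen, had few counts, as HIST2H2AA3 did among those called higher. HIST1H2BE had 19 counts over the 3 KO and 45 over the 3 WT libraries (-1.27 ± 0.49, adjusted p = 0.0423). HIST1H2AL had 13 in KO and 32 in WT cells (-1.33 ± 0.42, 0.0146), and HIST1H3F had 2 in KO and 26 in WT cells (-3.52 ± 0.90, 0.00425). The exon of HIST1H2AL overlaps HIST1H2BN on the same strand, and exons of HIST1H2BE overlap AL353759.1 on the other strand. WT DMSO replicate 1, the only library of its group with the 51 name prefix, had the highest summed histone level of its group, at 31.67 CPM. Within the 52 prefix the KO sum was 1.67 times the WT sum, from 1 and 2 libraries, and within the 51 prefix 1.19 times, from 2 and 1.

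The interaction asks whether the response to CC-885 differed between genotypes. Of the 51 genes, 9 were called with a larger response in KO cells and 0 with a smaller one. The members' share of 17.6% was close to the 17.9% of all genes called higher, where 16.8% were called lower and 34.7% either way. The median was 0.77 beside -0.01 for all genes, and 41 members were positive and 10 negative. Of the 12 members with at least 100 counts under DMSO, 4 were called higher and 0 lower, with a median of 0.26. At an unadjusted p under 0.05 the count with a smaller response was 1, HIST2H2BE, which read -1.09 ± 0.40 (adjusted p = 0.0593) and was called without WT CC-885 replicate 3 (-1.33, 9.95e-06) and with DESeq2 (-1.09, 0.0163). Its level under DMSO was higher in KO cells, as given above. Without WT CC-885 replicate 3 a larger response in KO cells was also called for HIST1H1D (1.83, 0.0228, against 2.10 and 0.0554 with it) and HIST1H2AC (0.62, 0.0436, against 0.60 and 0.0613 with it).

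Of the interaction calls, HIST1H3D (1.72 ± 0.45, adjusted p = 0.00752) was the named gene whose call held under all 21 alternatives, but it had 40 counts over the 6 DMSO libraries and passed the filter through the CC-885 libraries. HIST1H1E read 1.28 ± 0.40 (0.0209) and HIST1H2BJ 1.96 ± 0.62 (0.0238), and both calls were lost without KO DMSO replicate 2 (1.14 and 1.66, adjusted p = 0.0632 and 0.0648) and without WT DMSO replicate 1 (1.11 and 0.92, 0.0864 and 0.314). HIST1H2BC (0.82 ± 0.24, 0.017) lost its call without KO DMSO replicate 1 (0.70, 0.057) and without WT DMSO replicate 2 (0.77, 0.0678). It also lost it with the library-name number as a block (0.85, 0.0627), and read 0.87 in the 51-prefix libraries alone, which hold 1 WT DMSO library. The call of HIST1H1C (0.47 ± 0.17, 0.0394) was lost without any 1 of 9 libraries, the exceptions being WT CC-885 replicate 3 and WT DMSO replicates 2 and 3 (0.29 to 0.50, adjusted p from 0.05 to 0.168 over these and 2 other settings). That of HIST2H2BF (0.90 ± 0.31, 0.0352) was lost without any 1 of 8 (0.64 to 0.90, 0.0542 to 0.112). The exceptions were KO CC-885 replicate 2, WT CC-885 replicate 3, KO DMSO replicate 3 and WT DMSO replicate 2. The HIST2H2BF call was also lost without the filter (0.81, 0.0561) and with the library-name number as a block (0.86, 0.0939). That of HIST1H2BD (0.73 ± 0.27, 0.0449) was lost without any KO CC-885 library, KO DMSO replicate 1 or 3, or WT DMSO replicate 1 (0.49 to 0.75, 0.0626 to 0.204). The HIST1H2BD call was also lost with upper-quartile factors (0.65, 0.0866), library size alone (0.69, 0.0694) and no filter (0.65, 0.0758). HIST1H2AL (1.78 ± 0.49, 0.0102), whose exon overlaps HIST1H2BN, had 45 counts over the DMSO libraries, and HIST1H3F (3.55 ± 1.03, 0.0142) had 28.

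**Figure D4:**
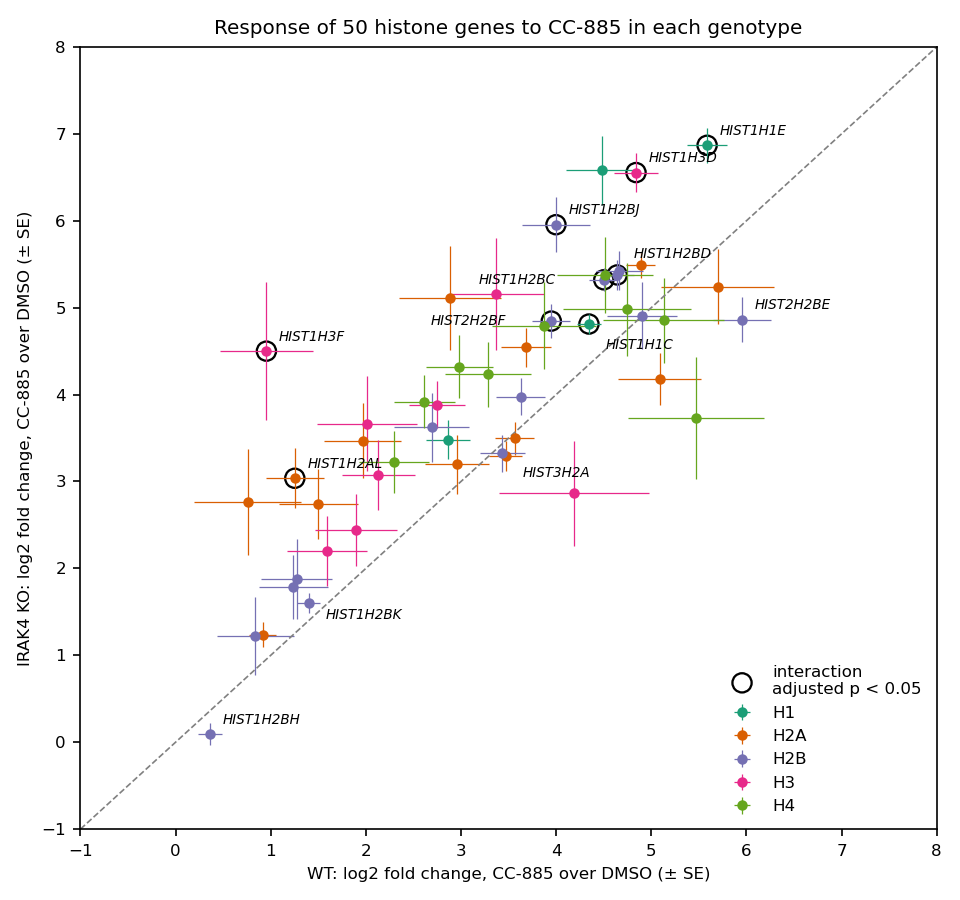
Log2 fold change of CC-885 over DMSO (± SE) in KO cells against that in WT cells for 50 histone genes, coloured by class, without HIST1H1T, which had 0 counts under DMSO. The dashed line marks equal responses, and black rings mark the 9 genes whose interaction had an adjusted p under 0.05, all above the line.

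Members were also grouped by their annotated 3-prime ends. The 13 members with a long transcript that ends near a polyadenylation signal had a median log2 fold change of 3.88 in KO and 3.47 in WT cells. The other 38 had medians of 4.20 in KO and 3.33 in WT cells. The 25 members with an annotated stem-loop had medians of 4.18 in KO and 3.68 in WT cells, and the 26 without one 3.70 in KO and 2.92 in WT cells. The 19 members with an end signal in any annotated transcript had medians of 4.18 in KO and 3.95 in WT cells, and the 32 without one 3.70 in KO and 2.92 in WT cells. Members that share a cluster lie close together and are not independent, so these medians carry no test.

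Genes that act on histone mRNAs were then described from lists written from general knowledge. Beside this and the lists below stand the shares of all genes tested. These were 38.9% higher and 40% lower under CC-885 in KO cells, and 35.7% higher and 36.6% lower in WT cells. Of 21 genes for histone transcription and 3-prime end processing, 16 were lower and 2 higher under CC-885 in KO cells, and 15 lower and 2 higher in WT cells, with medians of -0.83 in KO and -0.48 in WT cells. SLBP, which binds the stem-loop, had 82.5 ± 2.48 CPM in KO and 108 ± 7.79 CPM in WT cells under CC-885, and 140 ± 8.83 CPM in KO and 152 ± 7.68 CPM in WT cells under DMSO. It fell by 0.77 in KO (adjusted p = 2.08e-08) and by 0.50 in WT cells (4.85e-06). SLBP was lower in KO than in WT cells under CC-885 (-0.39 ± 0.07, 0.000121) and read -0.12 ± 0.07 (0.159) under DMSO. NPAT, the coactivator of histone gene transcription, read -0.11 ± 0.08 (0.237) in KO and 0.22 ± 0.08 (0.0199) in WT cells. It was lower in KO cells under CC-885 (-0.54 ± 0.08) and under DMSO (-0.21 ± 0.08, 0.037). The cyclins CCNE2 (-3.56 ± 0.24 in KO, -2.44 ± 0.23 in WT) and CCNE1 (-3.14 ± 0.12 in KO, -2.41 ± 0.11 in WT), partners of the kinase that activates NPAT, fell most, followed by the snRNP protein gene SNRPD3 (-2.41 ± 0.06 in KO, -1.60 ± 0.06 in WT) and CASP8AP2 (-1.73 ± 0.10 in KO, -1.15 ± 0.10 in WT).

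Of 35 DNA replication genes, 34 fell in KO and 34 in WT cells, with medians of -2.10 in KO and -1.41 in WT cells, the opposite direction to that of the histone genes. Of 19 genes for histone mRNA decay, 10 were higher and 7 lower in KO cells, and 11 higher and 6 lower in WT cells. The uridylyltransferase ZCCHC6 (2.78 ± 0.09 in KO, 2.495 ± 0.09 in WT), the exonuclease XRN1 (1.97 ± 0.09 in KO, 1.57 ± 0.09 in WT), the decapping factor DCP1A (1.88 ± 0.06 in KO, 1.63 ± 0.06 in WT) and the helicase DDX6 (1.53 ± 0.06 in KO, 1.19 ± 0.06 in WT) rose most. Of 21 genes for cleavage and polyadenylation, 8 were higher and 10 lower in KO cells, and 7 higher and 10 lower in WT cells. Their medians were 0.04 in KO and -0.15 in WT cells. CPSF2, CPSF3, SYMPK and CSTF2 are also in the list for histone transcription and 3-prime end processing. FIP1L1, a subunit of the cleavage and polyadenylation factor, rose by 1.61 ± 0.06 in KO and 1.04 ± 0.06 in WT cells. By size of change in KO cells, CSTF2 followed and fell (-1.14 ± 0.07 in KO, -0.66 ± 0.07 in WT). PAPOLG (0.96 ± 0.08 in KO, 0.97 ± 0.08 in WT) and PCF11 (0.96 ± 0.07 in KO, 0.31 ± 0.07 in WT) came next and rose. Of 24 histone chaperones and import factors, 5 were higher and 15 lower in KO, and 5 higher and 16 lower in WT cells, with medians of -0.74 in KO and -0.63 in WT cells.

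Histone genes outside the clusters, most of which give ordinary polyadenylated mRNAs, moved in both directions. Of 12 tested of 16 listed, 5 rose and 6 fell under CC-885 in each genotype. The linker gene H1F0 rose by 3.73 ± 0.07 in KO and 3.69 ± 0.07 in WT cells, to 3286 ± 71.8 CPM in KO and 2930 ± 170 CPM in WT cells. H1FX rose by 3.02 ± 0.07 in KO and 2.86 ± 0.07 in WT cells. The replacement gene H3F3B rose (2.32 ± 0.06 in KO, 1.81 ± 0.05 in WT), and its sister gene H3F3A, which encodes the same protein, fell (-1.38 ± 0.07 in KO, -1.27 ± 0.07 in WT). H2AFZ also fell (-1.92 ± 0.14 in KO, -1.03 ± 0.14 in WT).

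**Figure D5:**
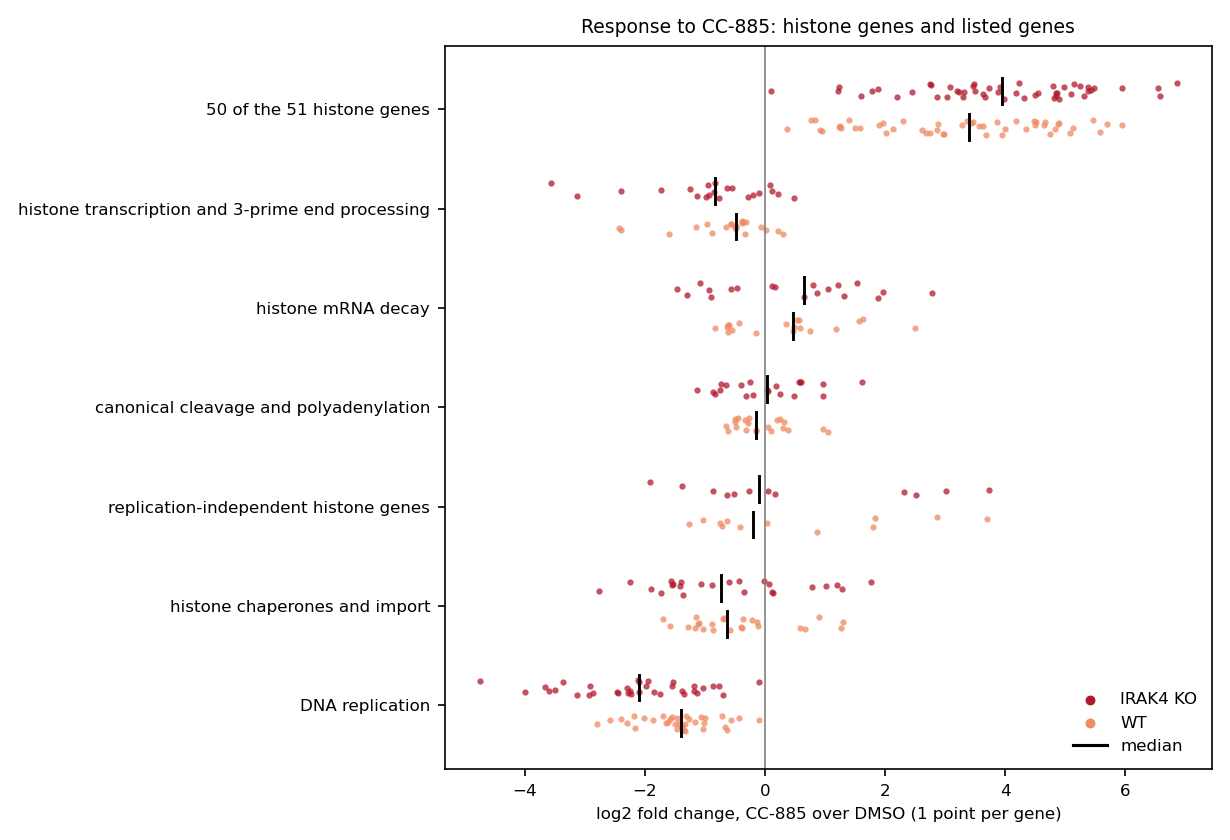
Log2 fold change of CC-885 over DMSO for each tested gene of the histone genes (without HIST1H1T) and of 6 other lists, in KO (upper) and WT cells (lower of each pair), with black bars at the medians. The histone genes lie to the right of 0, with medians near 3.98 in KO and 3.44 in WT cells, and the DNA replication genes lie to the left, with medians of -2.10 in KO and -1.41 in WT cells.

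To describe other RNA that lacks a polyA tail, 493 genes for small nuclear, nucleolar and other short RNAs were summed. They came to 137.5 ± 15.6 CPM in KO and 169.7 ± 40.9 CPM in WT cells under CC-885, and to 107.3 ± 8.91 CPM in KO and 167.7 ± 11.4 CPM in WT cells under DMSO. Their sum under CC-885 was 1.28 times that under DMSO in KO and 1.01 times in WT cells. Of 156 tested, 24 were higher and 50 lower under CC-885 in KO cells, and 19 higher and 51 lower in WT cells. Single abundant genes differed from the sum. RN7SK had 19.3, 20.7 and 26.0 CPM in KO and 12.2, 9.37 and 20.9 CPM in WT cells under CC-885, and 6.98, 5.42 and 6.38 CPM in KO and 10.9, 5.27 and 5.01 CPM in WT cells under DMSO. RMRP had 2.89, 3.65 and 4.47 CPM in KO and 3.22, 2.49 and 3.6 CPM in WT cells under CC-885, and 2.16, 2.53 and 1.89 CPM in KO and 3.63, 1.51 and 1.7 CPM in WT cells under DMSO. RPPH1 had 2.87, 3.76 and 5.02 CPM in KO and 2.85, 1.83 and 3.54 CPM in WT cells under CC-885, and 1.5, 1.5 and 1.61 CPM in KO and 2.03, 1.11 and 1.3 CPM in WT cells under DMSO. All 3 were higher under CC-885 without overlap in KO cells, and overlapped in WT cells. These 3 were chosen after their values were seen. The short RNAs are of other kinds than histone mRNA, so they do not measure how much untailed histone mRNA entered the libraries. The part that RNA without a tail plays in the histone result was not tested.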

How the data were processed

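PolyA-selected RNA of 12 libraries of a human monocytic line was sequenced as paired-end reads, per the labels' protocols. The authors deposited 1 table of whole-number counts per gene symbol, not normalized. Per the submitters' processing notes, the steps used FastQC 0.11.2, HISAT2 2.0.5 and featureCounts 1.5.2 with GRCh38. The extraction protocol in the labels names a mouse genome and FastQC 0.11.7, but the table's symbols are human. Whether counting used strand, and how reads with several alignments were treated, is not given in the sources used here.

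Counts were tested with the edgeR 4.0.16 quasi-likelihood test (robust, R 4.3.3) with TMM factors, genes kept by its expression filter (16010 of 30017), 1 coefficient per group and 5 contrasts. P-values were adjusted by Benjamini-Hochberg over those 16010 genes, with calls made below 0.05. SE is the log2 fold change divided by the root of F. The test was checked on simulated data. Alternatives were other scalings, no filter, DESeq2 1.42.0, blocks, library-name prefixes, a minimum of 500 counts and leaving out each library. Libraries held 46903984 to 56675539 counts, so members with few counts under DMSO have wide errors. Intervals and floors cover counting error only.

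The members and lists were chosen with earlier results of these data known. Genes named are the 10 with the most counts, the 6 largest called rises and falls per contrast with at least 1 CPM in the higher group, the genes at the threshold, HIST4H4, and from each other list SLBP, NPAT and up to 4 called genes. Others are named after their values were seen. The replicate numbers of the titles gave no sign of pairing: deviations of same-numbered libraries correlated between -0.034 and 0.073. Sequences are from GENCODE 29 transcripts and RefSeq promoters (GRCh38.p14). Figures were drawn with matplotlib 3.10.9.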

Additional observations from a re-analysis of the deposited data

Results flagged for a closer look

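The response to CC-885 differed between genotypes by a test of the difference itself (edgeR quasi-likelihood interaction, adjusted p under 0.05) for 9 of the 51 histone genes, or 17.6%, against 17.9% of all genes. The difference, KO minus WT on the log2 scale, was 1.957 for HIST1H2BJ, 1.715 for HIST1H3D and 1.282 for HIST1H1E. It was 0.8963 for HIST2H2BF, 0.8202 for HIST1H2BC, 0.7343 for HIST1H2BD and 0.4671 for HIST1H1C. Of these 7 genes, HIST1H3D was called under each alternative run. It had 40 counts over the DMSO libraries, passed the filter only through the CC-885 libraries, and its exon overlaps AL031777.3 on the same strand. The alternatives draw on the same few DMSO counts, so they are not independent support. The other calls were lost without at least 1 library, as given in the report. The response was the larger in KO cells for all 7. Groups of 3 libraries are too small for a check of single outlying values.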

How the results depend on the processing

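Of the counts of histone genes called and the summed levels, 232 values under alternatives stayed close and 28 moved; of the named genes' fold changes 2004 kept their call, 32 gained one, 66 lost one and 0 reversed. Requiring 500 counts left 24 members, of which 23 were called higher in KO and 24 in WT cells under CC-885, 0 were lower in KO cells under DMSO, and the KO sums were 525.6 CPM under CC-885 and 36.01 CPM under DMSO. The KO DMSO sum was 41.05 CPM with upper-quartile factors and 39.63 CPM with library size alone. Upper-quartile factors also shifted the median of all genes by -0.148 in the KO response and by 0.122 between genotypes under DMSO. Between genotypes under CC-885, the count lower in KO cells was 0 with the library-name number as a block, and 2 with the library-name prefix as a covariate and in the 51-prefix libraries alone. Under DMSO the count higher in KO cells was 4 with the library-name number as a block and 3 in the 51-prefix libraries alone. The count lower was 5 in the 51-prefix libraries, 1 with only the groups compared and 1 in the 52-prefix libraries, a setting chosen after seeing the data. The interaction gave 15 larger responses in the 51-prefix libraries, and 1 smaller response, HIST2H2BE, there, with DESeq2, with the prefix as a covariate and with either block. Leaving out each library, counts ranged from 49 to 50 and 47 to 49 (higher under CC-885 in KO and WT), 24 to 30 and 1 to 2 (higher and lower in KO under CC-885), 5 to 10 and 2 to 4 (the same under DMSO), and 4 to 13 and 0 to 1 (larger and smaller responses). The interaction count was 4 without WT DMSO replicate 1 and 13 without WT CC-885 replicate 3, which also gave the 1 smaller response. The replicate numbers of the titles gave no sign of pairing the libraries. As a replicate block they gave 29 higher in KO under CC-885, 8 under DMSO and 10 larger responses. The cause of these moves was not tested. Depth limits members with few counts under DMSO, 14 of which had under 10 counts over the KO and 11 over the WT libraries.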
